A study of Mus musculus with 12 samples.

Results

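Mediator is a large protein complex that connects transcription factors bound at enhancers with RNA polymerase II at promoters. Its core is built from a head, a middle and a tail module held together by a scaffold subunit, and a separate kinase module binds the core reversibly. In embryonic stem cells Mediator is known for its occupancy of enhancers of pluripotency genes. Its genes were chosen by name, as protein-coding genes called Med with 1 or 2 digits and at most a final letter, together with Cdk8, Cdk19 and Ccnc. This gave 34 gene entries with 33 symbols among 21503 protein-coding genes of GENCODE M1, and 142 of 121429 exonic rows and 142 of 91702 intronic rows of the deposited table. The symbol Med20 stands for 2 overlapping entries on chromosome 17, one of 47748531 to 47761367 and a longer one of 47748538 to 47821015, so the values of these entries cannot be fully separated. Positions are those of GENCODE M1 on mm9, whereas the submitters' processing notes name mm10.

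The question is how levels of these genes in newly made RNA compare with those in the whole RNA pool. Mouse embryonic stem cells (mESCs) of the DTCM23/49 XY line, kept on gelatin with serum and LIF, received 200 µM 4-thiouridine (4sU), a uridine analog that enters RNA made while it is present. After 15, 30 or 60 min, RNA was either sequenced directly (total RNA) or after biotinylation and streptavidin pull-down of the 4sU-containing part (labeled RNA). Each of the 6 groups had 2 biological replicates, and all 12 samples carried 4sU, so no unlabeled control bears on how much unlabeled RNA came down with the beads. Both replicates go back to 1 culture that was split and passaged 8 times, so the p-values below measure the spread between these subcultures and libraries.

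The deposited values carry no unit and were treated as length-normalized abundances. Exons and introns of a library summed together to between 19988830 and 19992902. The values carry no sequencing depth, so counting error could not be given. A level below is the mean over a gene's transcripts, on this assumed per-length scale. Transcripts of 1 gene can differ widely, and in 17 of the 25 Mediator genes with more than 1 transcript the highest was at least 2 times the lowest in total RNA. Introns held 6.99% to 14.8% of the signal in labeled and 6.53% to 7.41% in total RNA. In labeled RNA the share was 14.8% in replicate 1 and 7.24% in replicate 2 at 15 min, and 13.9% and 6.99% at 60 min, so labeled libraries of the same time stood apart from each other. All 8 pluripotency markers examined were present, with mean levels in total RNA of 94.3 for Klf4 to 6766 for Dppa5a. Of 15 markers of other lineages, 14 were measured and 9 had a mean level under 1 in total RNA, with Cdx2 and Dcn at 0 in every library. The summed level of these other markers was 30.8 to 48.7 in labeled and 34.5 to 61.3 in total RNA, most of it from Thy1.

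Mediator genes covered a wide range of levels in total RNA. Med21, a middle subunit that forms a hinge with Med7, was highest at 551 ± 60.4 (SD, n = 6). Med13, which joins the kinase module to the core, followed at 542 ± 82.1 (SD, n = 6), and Med6 of the head at 269 ± 21.5 (SD, n = 6). At the lower end were Med12l at 15.8 ± 3.29 (SD, n = 6), Med16 at 12.9 ± 1.85 (SD, n = 6) and Med22 at 9.58 ± 2.05 (SD, n = 6). High and low members thus came from several modules, and no module was uniformly abundant. The place of Med21 rested on 1 transcript annotated as a retained intron, ENSMUST00000075077, at 1367, without which the level of Med21 was 347 ± 54.6 (SD, n = 6). Med20 likewise had a retained-intron transcript at 407 and a level of 51.2 ± 11.4 without it (SD, n = 6). Over coding transcripts alone, an alternative added after seeing the data, Med13 was highest at 578 ± 74.4 (SD, n = 6), and Med21 was at 287 ± 66.8 and Med20 at 130 ± 15.3 (SD, n = 6). Of the 33 pairs of neighbors in this order, 29 had overlapping ranges over the 6 total RNA libraries. The exceptions in the order over all transcripts were Med13 above Med6, Cdk8 above Med14, Med20 above Med28 and Med9 above Med18.

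**Figure D1:**
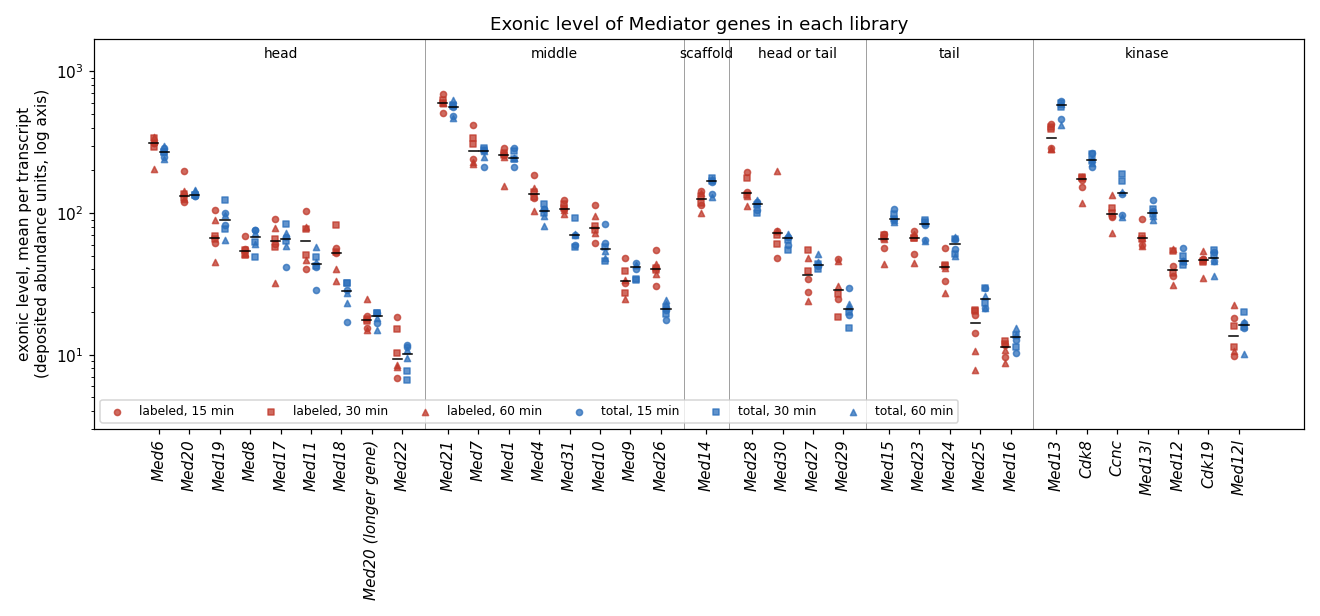
Exonic level (mean per transcript, deposited abundance units, log axis) of each Mediator gene in 6 labeled (red) and 6 total RNA libraries (blue), with symbols for the labeling time and a bar at the median of 6 libraries. Genes are grouped by module, and Med18, Med26 and Med31 lie higher in every labeled than in any total RNA library, whereas Med15, Med25 and Cdk8 lie lower in every labeled library.

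Labeled and total RNA differed in exonic level for 9 of the 34 genes, 4 higher and 5 lower in labeled RNA. These calls come from limma on log2(sum over transcripts + 1) with labeling time as covariate and Benjamini-Hochberg adjusted p under 0.05 over 13977 genes, of which 16.8% were called in either direction, 5.28% higher and 11.6% lower. The median difference on the log2 scale was -0.05 for the Mediator genes and -0.05 for all genes tested, so the list as a whole was placed like other genes. Differences of low genes are understated on this scale. The genes higher in labeled RNA were Med18, Med26, Med31 and Med4, of the head and middle modules, and those lower were Med13, Med13l and Cdk8 of the kinase module and Med15 and Med24 of the tail. Without replicate 1, 0 Mediator genes passed limma's threshold (2 at an unadjusted p under 0.05), and without replicate 2 also 0 (7 at an unadjusted p under 0.05). When 200 of these 13977 genes were given a simulated log2 difference of 1, the fit found 121 with all libraries and 0 without replicate 1. At 0.5, nearer the size seen in most of the called genes, it found 8 and 0. The 200 genes are a smaller share than the 16.8% called in the data, which makes the adjusted threshold stricter in the simulation. Its counts therefore do not give the power of the fit for the Mediator genes.

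Within the head module, Med18 (chr4:132014646-132019836, minus strand), which pairs with Med20 in the movable part of the head, had the highest difference. Its exonic level was 33.1 at the lowest, 52.5 at the median and 82.5 at the highest of the labeled libraries, against 17.1, 28.1 and 32.1 in total RNA. All 6 labeled libraries lay above all 6 total RNA libraries. The difference was 0.94 ± 0.19 on the log2 scale (SE, adjusted p = 0.00654), or 1.93-fold. Such a separation was seen for 3 of 34 Mediator genes and 2.72% of all genes tested. Of its coding transcripts, the shorter ENSMUST00000123604 was higher in labeled RNA, at 1.34 ± 0.30 (SE, limma over all transcripts, adjusted p = 0.0118), and the longer ENSMUST00000102567 differed by 0.36 ± 0.22 (SE, adjusted p = 0.277). Whether the transcripts differ from each other was not tested. None of the other head genes passed the test. The lowest difference was that of Med19, -0.35 ± 0.21 (SE, adjusted p = 0.282), from levels of 45.2, 67.1 and 105 in labeled and 64.7, 89.8 and 124 in total RNA. The remaining differences ran up to 0.53 ± 0.24 (SE, adjusted p = 0.156) for Med11, with Med17, a central architectural subunit of the head, at -0.04 ± 0.25 (SE, adjusted p = 0.926).

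The middle module held the other 3 genes that were higher in labeled RNA. Med26 (chr8:75018457-75072209, minus strand), which carries a domain like that of elongation factor TFIIS and recruits elongation factors, had levels of 30.7, 40.3 and 54.6 (lowest, median and highest) in labeled and 17.5, 21.1 and 24.5 in total RNA. Labeled libraries again lay above every total RNA library, with a difference of 0.92 ± 0.19 on the log2 scale (SE, adjusted p = 0.00794). Med31 (chr11:72025226-72029094, minus strand), a small and conserved middle subunit, ranged from 99.3 to 123.5 around a median of 107.5 in labeled and from 58.1 to 92.0 around 69.8 in total RNA. Its groups did not overlap either, and the difference was 0.66 ± 0.13 (SE, adjusted p = 0.00647). Med4 (chr14:73909856-73918352, plus strand), another subunit of the middle, had 103, 136 and 187 in labeled and 81.7, 104 and 117 in total RNA. Its groups overlapped, although labeled RNA was higher in 6 of 6 libraries compared with total RNA of the same time and replicate number. The difference of Med4 was 0.44 ± 0.14 (SE, adjusted p = 0.0463), and it missed the threshold with a block for replicate pairs (adjusted p = 0.0674). Med1, whose LXXLL motifs bind nuclear receptors, had 156, 257 and 287 in labeled and 213, 243.5 and 290 in total RNA. These ranges overlapped, and the difference was -0.05 ± 0.14 (SE, adjusted p = 0.843). Med9, with 24.9, 32.9 and 47.9 in labeled and 33.8, 41.6 and 44.3 in total RNA, had the lowest difference of the middle module, at -0.24 ± 0.18 (SE, adjusted p = 0.397). By value, 6 of the 8 middle genes were above 0.

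The scaffold subunit Med14 (chrX:12252495-12339199, minus strand), which spans head, middle and tail, had 99.9, 125 and 144 in labeled and 130, 167 and 178 in total RNA. The ranges overlapped, and the difference of -0.36 ± 0.12 (SE, adjusted p = 0.0693) did not pass the test. Of its 3 coding transcripts, ENSMUST00000096495 was lower in labeled RNA by limma over all transcripts, at -0.45 ± 0.10 (SE, adjusted p = 0.0149), and the other 2 did not pass (adjusted p = 0.0832 and 0.0932). Med27 to Med30, are placed in the head or the tail depending on the source, and 0 of 4 passed limma's test, 2 of 4 having an unadjusted p under 0.05. Med29 had the highest difference among them, 0.52 ± 0.24 (SE, adjusted p = 0.151), with 18.6, 28.6 and 47.7 in labeled and 15.6, 20.9 and 29.8 in total RNA. Med27 had the lowest, -0.27 ± 0.18 (SE, adjusted p = 0.328), with 23.9, 36.7 and 54.7 in labeled and 40.1, 43.2 and 51.4 in total RNA. Both had overlapping ranges.

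The tail is the module that many transcription factors contact, and 5 of 5 of its genes had a difference below 0, of which 2 passed the test as lower in labeled RNA. Med15 (chr16:17651301-17723040, minus strand), a subunit bound by SREBP and other activators, had 44.0, 66.0 and 71.4 in labeled and 87.1, 90.6 and 107 in total RNA. All labeled libraries lay below all total RNA libraries, as in 3 of 34 Mediator genes and 7.28% of genes tested, with a difference of -0.60 ± 0.13 (SE, adjusted p = 0.0094). Med24 (chr11:98565905-98590749, minus strand) had 27.4, 41.8 and 57.1 in labeled and 49.8, 60.8 and 67.4 in total RNA, which overlapped. Its difference of -0.57 ± 0.16 (SE, adjusted p = 0.0353) missed the threshold with the block for replicate pairs (adjusted p = 0.0886) and with exonic values rescaled to one total (adjusted p = 0.0532). Med25, a target of the viral activator VP16, had 7.85, 16.6 and 20.8 in labeled and 21.2, 24.7 and 29.6 in total RNA. These groups did not overlap and the difference of -0.73 ± 0.24 (SE) was the lowest of all Mediator genes, but it missed the threshold (adjusted p = 0.058). Med16, with 8.75, 11.3 and 12.5 in labeled and 10.3, 13.2 and 15.4 in total RNA, had the difference nearest 0 in the tail, at -0.24 ± 0.14 (SE, adjusted p = 0.267).

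The kinase module, in which Cdk8 or Cdk19 acts with cyclin C, Med12 and Med13, had 7 of 7 genes below 0, and 3 of 7 passed the test. With replicate 2 left out, 5 of 7 were below 0, Cdk19 and Med12l lying at 0.08 and 0.31. The median difference was -0.43 for the kinase module and -0.57 for the tail, against 0.03 for the head and 0.29 for the middle, and the head median turned to -0.02 with quantile normalization. Exonic values rescaled to one total left 7 of 7 kinase and 5 of 5 tail genes below 0, Cdk19 only barely (limma, adjusted p = 0.989). These are descriptions of genes sorted by module, and no test compared the modules with each other or with other genes.

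Paralogs in the kinase module were compared next. Med13 (chr11:86080535-86171104, minus strand) had 282, 338 and 429 in labeled and 422, 576 and 623 in total RNA. Its paralog Med13l (chr5:119010728-119215444, plus strand) had 58.7, 66.5 and 90.8 in labeled and 89.8, 101 and 123 in total RNA. In 6 of 6 pairs of the same time and number both were lower in labeled RNA, with differences of -0.65 ± 0.13 (SE, adjusted p = 0.008) and -0.59 ± 0.13 (SE, adjusted p = 0.011). Med13 was the more abundant, by a factor of 5.07 ± 0.70 in labeled and 5.28 ± 0.71 in total RNA (SD, n = 6). Cdk8 (chr5:147042806-147114450, plus strand), the kinase itself, had 118, 175 and 181 in labeled and 211, 237 and 265 in total RNA. No labeled library reached the lowest total RNA library, and the difference was -0.56 ± 0.12 (SE, adjusted p = 0.00971). Its paralog Cdk19 had 34.7, 46.5 and 54.2 in labeled and 35.9, 48.1 and 54.6 in total RNA, and the groups overlapped with a difference of -0.06 ± 0.14 (SE, adjusted p = 0.804). Accordingly the ratio of Cdk8 to Cdk19 was 3.58 ± 0.31 in labeled and 5.09 ± 0.68 in total RNA (SD, n = 6), ranging from 3.24 to 3.95 and from 4.29 to 6.28. This ratio was lower in every labeled than in any total RNA library, and no test was run on it because the pair was singled out with the values of both genes known.

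Med12, which activates the kinase, had 30.8, 39.9 and 55.4 in labeled and 43.2, 46.1 and 57.0 in total RNA. Its less abundant paralog Med12l had 9.83, 13.6 and 22.5 in labeled and 10.1, 16.2 and 20.1 in total RNA. Neither passed the test, at -0.19 ± 0.16 (SE, adjusted p = 0.430) and -0.14 ± 0.24 (SE, adjusted p = 0.734). Ccnc, encoding cyclin C, had 72.6, 98.1 and 134 in labeled and 94.4, 139 and 188 in total RNA, and these overlapping levels gave a difference of -0.43 ± 0.18 (SE, adjusted p = 0.117).

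**Figure D2:**
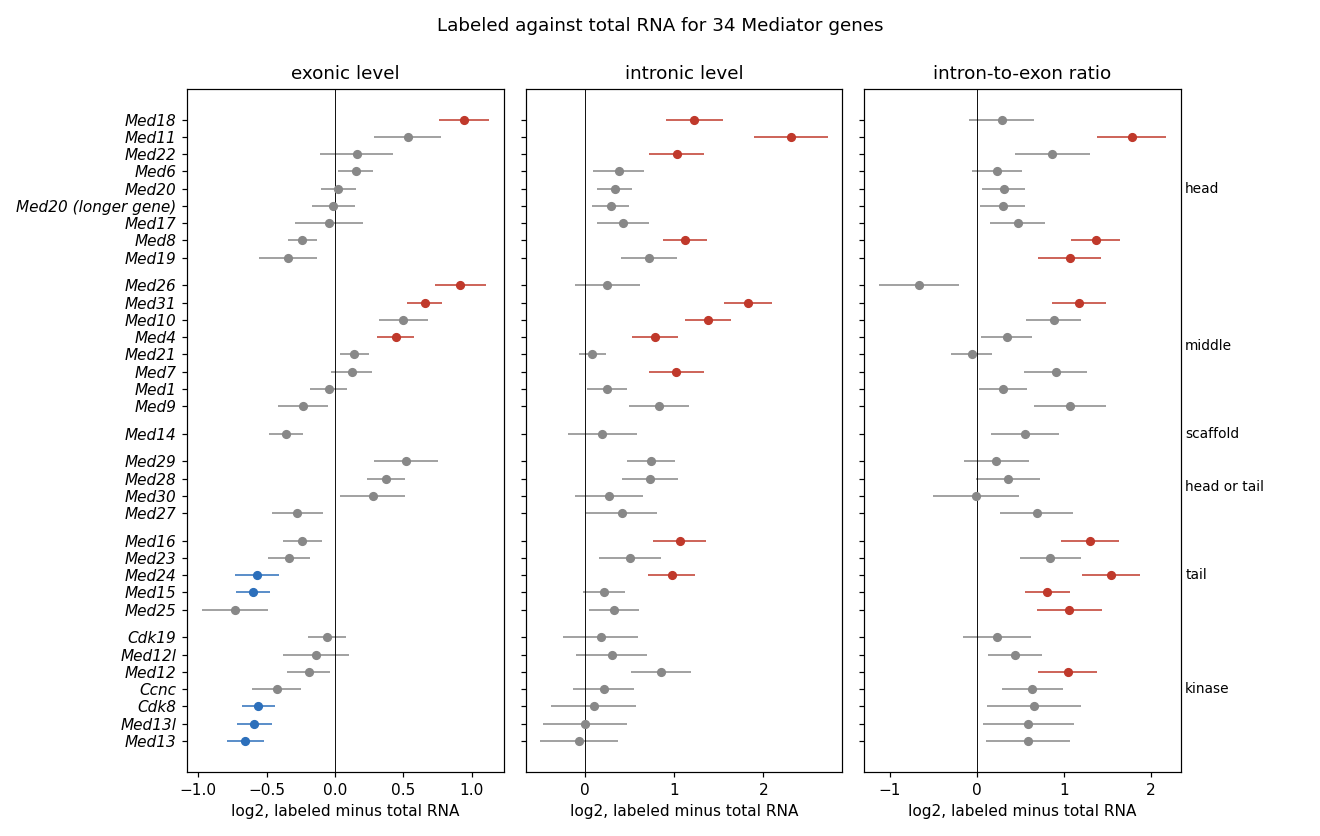
Difference between labeled and total RNA on the log2 scale (points, with SE from limma) in exonic level, intronic level and intron-to-exon ratio for 34 Mediator genes grouped by module. Red and blue points passed the threshold as higher and lower in labeled RNA, and exonic levels show 4 higher and 5 lower genes whereas introns show 10 higher and 0 lower.

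Other parts of the transcription machinery were examined as lists. Of 12 tested subunits of RNA polymerase II, 1 was higher and 1 lower in labeled RNA, with a median of 0.06. The higher one was Polr2k at 0.70 ± 0.14 (SE, adjusted p = 0.00631) and the lower one Polr2a, the large catalytic subunit, at -0.78 ± 0.17 (SE, adjusted p = 0.011). Of 14 subunits of TFIID, which binds core promoters, 0 were higher and 3 lower, namely Taf2, Taf3 and Taf4a, with a median of -0.14. Of all genes tested 5.28% were higher and 11.6% lower. No test compared these lists with Mediator.

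Sequence elements of the 3′ UTR that bear on mRNA turnover were looked up in GENCODE M1, in the longest coding transcript. The AU-rich heptamer TATTTAT is bound by regulators of mRNA decay, and TGTANATA is the core site of Pumilio proteins, which repress and destabilize mRNAs. Both were searched on the sense strand, and sites of both can share at most their 2 end bases. Of 10247 tested genes with an annotated 3′ UTR, 27.9% held TATTTAT and 25.2% held TGTANATA, and of 33 Mediator genes 9 and 12 did. Sites of the called genes are shown because they occur among genes that were higher and genes that were lower in labeled RNA. The element is in capitals with 8 flanking bases on each side, and positions count from the first base of the 3′ UTR.
Med18, position 716 of 829: tattccttTATTTATttgttgtt
Med13, position 423 of 3953: gcatctctTATTTATtgtaagtt
Med13, position 1406 of 3953: gactttttTATTTATtgaatttt
Med13l, position 559 of 2602: attctgttTATTTATttttcatt
Med13l, position 1959 of 2602: tggtgacaTATTTATacgttttt
Med31, position 32 of 161: ttaggacgTGTATATAatgtattg
Med4, position 177 of 479: tgtttggtTGTACATAgcagccct
Med4, position 454 of 479: gtaatttgTGTAAATAaacttggt
Med24, position 223 of 309: ccacagtgTGTATATAagttttat
Med24, position 278 of 309: ggttcctcTGTAAATAaagatcct
Med13, position 1318 of 3953: aactgtggTGTAAATAgatcctca
Med13, position 1850 of 3953: tcctgtttTGTAAATAatatacat
Med13l, position 921 of 2602: gggactcgTGTACATAtcacaacc

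Neither element separated the Mediator genes by direction. TATTTAT was found in 1 of 4 genes higher and 2 of 5 genes lower in labeled RNA, and TGTANATA in 2 of 4 and 3 of 5. Med18 holds TATTTAT in its longer transcript, the one that did not pass the test alone, and its shorter one has no annotated 3′ UTR. Among all genes, TATTTAT was found in 22.3% of those higher and 34.9% of those lower, and TGTANATA in 17.8% and 35.5%. Their 3′ UTRs had median lengths of 835 and 1576 nt. Longer 3′ UTRs have more room for both elements, and this length differs along with the share. The 3′ UTRs of Med13 (3953 nt) and Med13l (2602 nt) were longer than those of Med31 (161 nt), Med4 (479 nt), Med18 (829 nt) and Med26 (929 nt), whereas Med24 with 309 nt was short among the lower genes. A match marks only these letters and not a bound site.

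Intronic signal was compared in the same way. It stands for unspliced RNA only in part, since in 26 of the 34 genes an intron of 1 transcript holds exons of another transcript of the same gene. Of 34 genes tested, 10 had a higher intronic level in labeled RNA and 0 a lower one by limma, and 15 had an unadjusted p under 0.05. Of all 17050 genes tested 27.9% were called, 27.8% higher and 0.152% lower. The median difference was 0.42 on the log2 scale for Mediator genes and 0.64 for all genes. How many passed depended on the scaling. With intronic values rescaled to one intronic total, 5 were higher and the medians moved to -0.07 for Mediator genes and 0.17 for all genes. With quantile normalization 1 was higher, and the medians were -0.25 and -0.04. Among all called genes the share that was higher moved from 99.5% to 89.5% and 52.1% under these scalings. In exonic levels, where 31.4% of all called genes were higher, this share was 42.7% after rescaling to one exonic total.

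Most of the 10 called genes had at most 10 kb of introns in a transcript, as did 12 of the 34 genes tested and 4114 of 14812 protein-coding genes. Calls by length were not counted over all genes. Med11 of the head, with at most 907 bases of introns in a transcript, had intronic levels of 4.15, 7.66 and 11.4 (lowest, median and highest) in labeled and 0, 1.69 and 4.25 in total RNA. Its intronic difference was the highest of all members, 2.31 ± 0.42 (SE, adjusted p = 0.00254), with 1 total RNA library listed at 0 and others near the cutoff of the deposited values. Med31, with 2708 intronic bases, had 42.4, 58.5 and 76.4 in labeled and 11.9, 14.9 and 25.6 in total RNA, with no overlap and a difference of 1.83 ± 0.26 (SE, adjusted p = 0.00146). Med10, with 5351 intronic bases, had 11.1, 12.7 and 16.2 in labeled and 2.72, 4.69 and 6.18 in total RNA, and its difference of 1.38 ± 0.26 (SE, adjusted p = 0.0029) also came from groups that did not overlap. Such separation held for 4 of 34 Mediator genes and 15.1% of all genes. The other 7 genes that passed were Med18, Med8, Med16, Med22, Med7, Med24 and Med4, with differences from 0.78 for Med4 to 1.23 for Med18. Intronic levels in total RNA were 1.82 to 4.09 for Med16 and 2.71 to 3.74 for Med22, also near the cutoff of the deposited values. Only Med16 and Med24 among the 10 had more than 10 kb of introns. At the other end, the intronic difference was -0.07 ± 0.44 (SE, adjusted p = 0.901) for Med13, whose introns had 4.07, 11.6 and 32.1 in labeled and 9.71, 13.5 and 16.3 in total RNA.

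The labeled libraries did not treat genes of long and short summed intronic length alike. For each library, the intronic level of a gene was set against its mean over total RNA and ranked by the intronic length of the gene. Across the 34 genes Spearman's rho was -0.43 and -0.78 for replicates 1 and 2 at 15 min, -0.84 and -0.66 at 30 min, and 0.06 and -0.73 at 60 min. Across 14812 protein-coding genes the values had the same sign in each library, from -0.48 to 0.01. Genes are not independent replicates, they share the library and its scaling, and overlapping isoforms share introns, so these are descriptions. For the 10 Mediator genes with introns over 50 kb in sum, the median log2 difference was 1.24 in replicate 1 and -0.78 in replicate 2 at 15 min, and 1.29 and -0.60 at 60 min. For the 12 genes with up to 10 kb it was 1.65 and 0.43 at 15 min, and 1.17 and 0.55 at 60 min. Both at 15 and at 60 min, replicate 1 was the library with the high intronic share.

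Med13l, whose introns reach 195397 bases, shows this in single values. Its intronic level was 34.3 and 4.31 at 15 min, 8.13 and 12.9 at 30 min, and 32.1 and 4.32 at 60 min in replicates 1 and 2 of labeled RNA, against 10.1 to 13.2 in total RNA. Thus 2 labeled libraries lay far above and 3 below all total RNA libraries. Med12l, with 301274 bases, had 10.3 and 2.27 at 15 min and 11.7 and 2.51 at 60 min, against 3.15 to 4.86 in total RNA. Med31 by contrast was higher in each labeled than in any total RNA library. With the 15 min and 60 min labeled libraries of replicate 1 left out, 8 genes had higher and 2 lower intronic levels in labeled RNA, against 21.5% and 3.13% of all genes. Exonic calls were then 5 higher and 5 lower, against 5.52% and 11.1% of all genes. The part of these libraries in the intronic results of the long genes was not tested further.

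**Figure D3:**
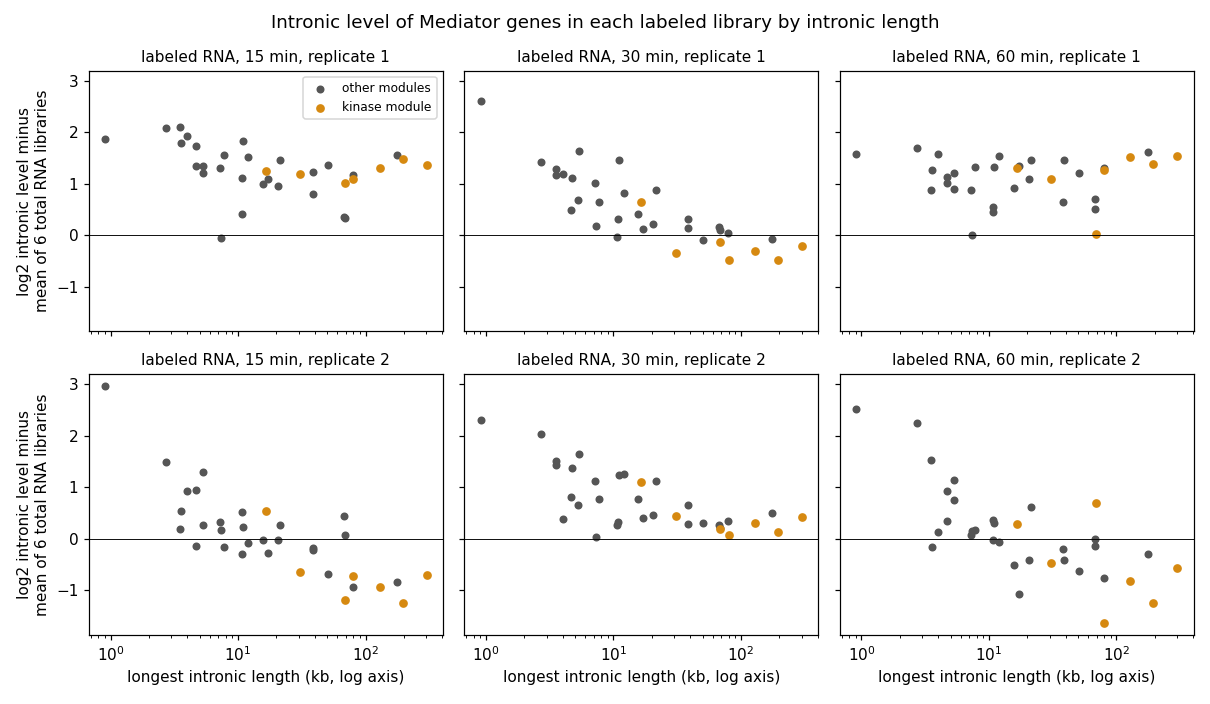
Intronic level of 34 Mediator genes in each labeled library, as log2 minus the mean over 6 total RNA libraries, by the longest intronic length of the gene (kb, log axis), with the kinase module in orange. Replicate 1 at 15 and 60 min is above 0 for nearly all genes, whereas in replicate 2 at these times 8 of the 10 genes with over 50 kb lie below 0.

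Exonic differences also went with length. Across the 34 genes the exonic difference between labeled and total RNA had a Spearman's rho of -0.60 with intronic length and -0.52 with exonic length, and across protein-coding genes -0.38 and -0.30. Med26 stood outside this order, being higher in labeled RNA with 50713 intronic bases. No kinase module or tail gene was among the 12 genes with up to 10 kb of introns. Intronic lengths ran from 16496 bases for Med12 to 301274 for Med12l in the kinase module. In the tail they ran from 10710 for Med25 to 68447 for Med15. Module and length therefore cannot be told apart here, for the kinase module or for the tail.

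Introns can hold other genes, whose reads cannot be separated from intronic reads if they lie on the same strand, or on either strand if counting ignored strand, which the sources used here do not state. Annotated exons of another gene lie in an intron of 19 of the 34 genes. Med21 had intronic levels of 276 to 332 over all 12 libraries, which hardly differed between labeled and total RNA (0.08 ± 0.15, SE), and the abundant pseudogene Gm6654 on the opposite strand of its intron had levels of 6713 ± 1114 in labeled and 6872 ± 848 in total RNA (SD, n = 6). Introns of Med1 and Med15 hold Gm11604 and Rpl26-ps4 with mean levels of 2716 and 4847 in total RNA. On the same strand, introns of Med12l and Med6 hold Gm10071 and Gm16570, with mean levels of 4060 and 214 in total RNA. Introns of the longer Med20 entry also hold same-strand exons of the shorter entry and of Usp49, with mean levels of 137 and 39.1. Intron-based values of these genes and of both Med20 entries, whose introns hold Gm9183, carry this limit, as can those of the other genes with such exons.

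The intron-to-exon ratio, which also counts exons of other transcripts that lie in introns, was higher in labeled RNA for 9 genes and lower for 0 by limma, and 13 had an unadjusted p under 0.05. Of 10556 genes 26.6% were called, 26.4% higher and 0.161% lower. The median log2 difference was 0.61, with 0.70 over all genes. By value, 31 of 34 Mediator genes had a higher ratio in labeled RNA. Med11 had the highest difference, 1.78 ± 0.40 (SE, adjusted p = 0.00914), followed by Med24 at 1.54 ± 0.33 (SE, adjusted p = 0.0078). In Med24 the ratio was 0.309 ± 0.122 in labeled and 0.0985 ± 0.0193 in total RNA (SD, n = 6). Of the 5 tail genes 4 passed, namely Med15, Med16, Med24 and Med25, and the other genes that passed were Med8, Med19, Med31 and Med12. Intronic levels in total RNA were only 0.972 to 3.84 for Med12 and 1.82 to 4.09 for Med16, near the cutoff of the deposited values. Med25 missed the threshold with a block for replicate pairs (adjusted p = 0.0505). Med26 had the lowest difference, -0.67 ± 0.46 (SE, adjusted p = 0.255), and its exonic level was higher in labeled RNA. Without replicate 1 only 3 genes passed, and without the labeled 15 min library of replicate 2 there were 18. With the 15 min and 60 min labeled libraries of replicate 1 left out, 2 head, 2 middle and 3 tail genes had a higher ratio. A lower ratio was then called for 1 middle gene, and over all genes 16.4% were higher and 0.805% lower. The median of the kinase module went from 0.59 to 0.08 on the log2 scale.

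The labeled-to-total difference was also taken at each labeling time, where 2 libraries stand against 2. No Mediator gene passed limma's threshold at 15, 30 or 60 min, where 0%, 0.0286% and 0% of all genes did, while 8, 6 and 6 Mediator genes had an unadjusted p under 0.05, as did 11.2%, 11.8% and 11.9% of all genes. Values kept their direction at all 3 times for the 9 genes called over all libraries. These genes were called from the same libraries, so this is no separate evidence. Med18 was higher in labeled RNA by 1.28 ± 0.31 at 15 min, 1.03 ± 0.31 at 30 min and 0.53 ± 0.31 at 60 min (SE), and Med13 differed by -0.61 ± 0.25, -0.54 ± 0.25 and -0.82 ± 0.25 (SE). Without the labeled 60 min library of replicate 1, 2 Mediator genes passed limma's threshold at 60 min, Cdk8 as lower and Med30 as higher in labeled RNA, as did 3.72% of all genes. The 1 labeled 60 min library that was left is then assumed to vary like the other groups, and it held the level of Med30 that stood apart, 198 against a median of 72.1 over labeled libraries.

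Times were compared within each kind of RNA. Between 60 and 15 min, 0 of 34 Mediator genes and 0% of all genes passed in labeled RNA (1 at an unadjusted p under 0.05, Med30), and likewise 0 and 0% in total RNA (0 at an unadjusted p under 0.05). The change of the labeled-to-total difference from 15 to 60 min passed for 0 of 34 (0 at an unadjusted p under 0.05) and 0% of all genes, and its estimates ran from -0.83 for Med17 to 0.85 for Med30. In total RNA the differences ran from -0.50 for Med10 to 0.55 for Med11, and the median was -0.01.

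Rates were derived in a simple form from the same values. Synthesis is the labeled exonic level per hour of labeling, processing is synthesis over the total intronic level, and degradation is synthesis over the total exonic minus intronic level, averaged over the labeling times. Each labeled library has the same total, so the rates fall with labeling time by construction and were read only as percentiles among 9917 (processing) and 10273 (degradation) protein-coding genes. They are another form of the labeled-to-total comparison and no separate evidence, and no test was run. The median percentile of Mediator genes was 56.9 for processing and 57.9 for degradation, near the middle of protein-coding genes.

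By degradation, Med26 and Med18 were at percentiles 98.7 and 97.7. In these genes the total intronic level was 0.798 ± 0.115 and 0.647 ± 0.328 of the exonic level (SD, n = 6), so the denominator left after subtraction was small. Next came Med20 at 89.4, Med21 at 88.1, Med31 at 84.8 and Med22 at 82.5. In Med20 and Med21 the total intronic level was 0.591 ± 0.051 and 0.537 ± 0.062 of the exonic level (SD, n = 6). This also reduced their denominators, and introns of both hold abundant genes named above. Their exonic differences were 0.03 ± 0.13 and 0.14 ± 0.11 (SE). The lowest were Med13 at 3.12, Med13l at 7.40 and Med24 at 11.04. The longer Med20 entry had a higher intronic than exonic level, 3.07 ± 0.41 times as high in total RNA (SD, n = 6), and no degradation rate. Its intronic level can include reads of the shorter entry, Usp49 and Gm9183. Median degradation percentiles were 30.5 for the tail and 22.5 for the kinase module. They were 71.8 for the head, without the longer Med20 entry, and 71.0 for the middle. The head median includes Med18 and Med20 and the middle median Med21 and Med26, with the reduced denominators given above.

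Processing gave another order. Med11 was at percentile 96.0, Med12 at 93.3, Med13 at 92.1 and Med10 at 90.2. The rate of Med11 averaged only 15 and 30 min (157.2 and 39.9 per hour), as 1 total RNA library at 60 min was listed at 0. Its percentile is therefore not fully comparable with those of genes averaged over 3 times. For Med12 the total intronic level was only 0.972 to 3.84, near the cutoff of the deposited values. Med15, Med20 and Med21 were at 10.4, 10.97 and 12.6, and their introns hold the abundant genes named above or Gm9183. The longer Med20 entry was lowest, at 0.645, and its intronic level carries the limit given above. Med13 and Med12 therefore combined a high processing with a low degradation percentile, the latter being 19.9 for Med12. Their paralogs had lower processing percentiles, 49.8 for Med13l and 30.5 for Med12l, and the intronic level behind the latter can include reads of Gm10071. Per replicate, Med13 was at 90.1 and 91.8 for processing and Med12l at 37.9 and 22.2, so both replicates put Med13 above Med12l. Degradation percentiles were less alike for some members, with Cdk8 at 40.2 and 91.96 and Med12l at 76.7 and 10.5 in replicates 1 and 2.

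**Figure D4:**
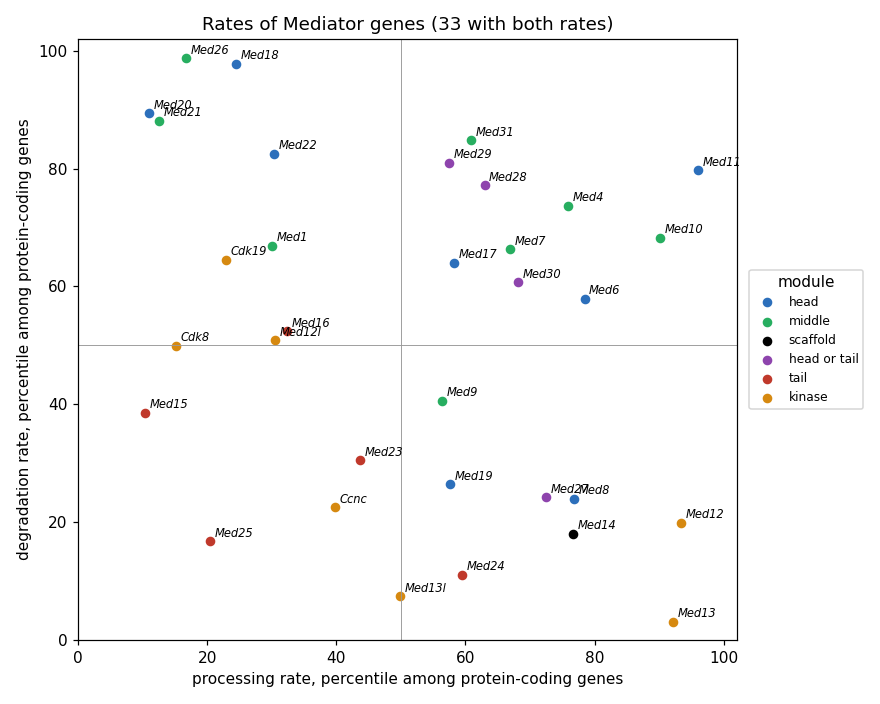
Percentiles of processing rate (horizontal) and degradation rate (vertical) among protein-coding genes for the 33 Mediator genes with both rates, colored by module, with lines at 50. Med26 and Med18 lie at the top with degradation percentiles of 98.7 and 97.7, and Med13 lies at the bottom right with 3.12 for degradation and 92.1 for processing.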

How the data were processed

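The authors depleted rRNA reads using STAR v2.5.0, mapped the remaining reads of the 12 libraries to exonic and intronic sequence, and estimated abundances by RSEM. The deposited values carry no unit and were treated as a score, equal to about 20 times TPM, with values of 1 or less missing and set here to 0. Transcripts were summed per gene using GENCODE M1, which contains 83847 of the 111672 Ensembl transcripts. Genes with a mean sum of at least 20 (exons) or 2 (introns) were tested on the log2 scale after adding 1, with a mean-variance trend and labeling time as covariate (limma v3.58.1, R v4.3.3), and calls were made at a Benjamini-Hochberg adjusted p of 0.05. Groups were taken from the sample labels. The replicate number marks 1 of 2 subcultures, which pairs labeled with total RNA. Across 13977 genes, deviations from group means correlated between the members of a pair at -0.0695, 0.048 and -0.188 (15, 30 and 60 min). The model with a block for these pairs is reported where it altered a call. Mediator genes and comparison lists were chosen with earlier results of these data known. Values were given for all Mediator genes past the threshold, the highest and lowest of each module, the paralog pairs, Ccnc, Med1, Med12 and Med14. The model was tested on simulated data, and alternatives covered pseudocount, filter, scaling, pairing, transcript choice and single libraries. Figures were drawn in Python v3.11.15 with matplotlib v3.10.9.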

Additional observations from a re-analysis of the deposited data

Results flagged for a closer look

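A sample far from the others of its kind was looked for in the 6 labeled and the 6 total RNA libraries of each Mediator gene, in exonic and intronic level, with Dixon's ratio on the log2 scale. Of 136 groups 10 had such a library, and chance alone gives about 1 in 20, or 6.8.

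In the labeled 60 min library of replicate 2, the exonic level was 198 for Med30 against a median of 72.1 over the labeled libraries, 156 for Med1 against 257 and 206 for Med6 against 314, and the intronic level of Med20 was 78.9 against 104. This library and replicate 1 of its group lay at opposite ends of the second principal component of all exonic levels, at -72.3 and 58.5. In the labeled 15 min library of replicate 2, the exonic level was 90.8 for Med13l against 66.5, 197 for Med20 against 132 and 68.7 for Med8 against 53.7. In total RNA, the intronic level was 3.84 for Med12 in replicate 1 at 60 min against 1.38, 7.99 for Med23 in replicate 2 at 15 min against 14.0, and 4.19 for Med24 in replicate 1 at 30 min against 5.91.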

How the results depend on the processing

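Of the 9 Mediator genes called in exonic level, 7 (3 higher, 4 lower) passed with a block for replicate pairs, when calls over all genes went from 2353 to 1270, and Med24 and Med4 did not. With pairs crossed at 60 min, an alternative chosen after seeing the pair correlations, 10 Mediator genes were called (3 higher, 7 lower), among them Ccnc and Med14 but not Med4, and 2716 genes in all. With only the longest coding transcript of each gene 14 of 31 passed, when 2279 of 8758 genes were called in all. Other choices of pseudocount, filter, trend, scaling and transcript summary gave 8 to 13. Calls over all genes moved too, to 2956 of 13977 with quantile normalization (13 Mediator genes) and 2100 of 13977 with exonic rescaling (8 Mediator genes). Leaving out libraries gave 0 to 10 calls in exonic level, 4 to 15 in intronic level (10 with all), 3 to 18 in the intron-to-exon ratio (9 with all) and 0 to 2 at single labeling times (0 with all). Without replicate 1 no gene of the table was called in exonic level and without replicate 2 there were 5, so these calls need both replicates. Intronic calls fell to 5 with intronic values rescaled and 1 with quantile normalization. With the replicate block there were 12 intronic and 11 ratio calls. Calls between times stayed at 0 in all alternatives run. The median processing percentile, 56.9, was 50.3 at 30 min and 44.2 at 60 min alone and 51.0 to 55.2 without a replicate. The median degradation percentile, 57.9, was 47.3 at 60 min alone and 50.7 to 56.1 without a replicate. The causes were not tested.

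Exonic differences that changed sign belonged to genes that did not pass. With exonic rescaling Med1 and Med17 were at 0.01 and the longer Med20 at 0.04, with quantile normalization Med1 was at 0.11 and Med22 at -0.02, and with the longest transcript Med1 was at 0.00 and Med20 at -0.07. Without libraries, Cdk19 ranged from -0.20 to 0.08, Med12l from -0.58 to 0.31, Med17 from -0.18 to 0.01, Med20 from -0.09 to 0.13, the longer Med20 from -0.27 to 0.24, Med6 from -0.02 to 0.32 and Med7 from -0.03 to 0.28. Med4 missed the threshold also without the low-level filter (adjusted p = 0.0723) and without the labeled 15 min library of replicate 2 (adjusted p = 0.0679), both by limma. Depth is not known from the values, so its effect on single genes could not be assessed.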

Other observations

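The intronic level of Cdk8 varied widely between replicates of the same group. In total RNA it was 52.2 and 178.7 at 15 min, 30.7 and 47.0 at 30 min, and 157.2 and 28.9 at 60 min in replicates 1 and 2. Exonic levels of Cdk8 in the same 6 libraries stayed between 210.5 and 264.9. The pseudogene Gm15739, on the same strand in an intron of Cdk8, had a level of 18.5 ± 5.94 in total RNA (SD, n = 6).

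Of 123 Mediator transcripts tested singly, 6 were higher and 17 lower in labeled RNA by limma over 45537 transcripts. Of all these transcripts 17.3% were called, 2403 as higher and 5485 as lower. The 6 and 17 Mediator transcripts belonged to 5 and 8 genes, and no gene had transcripts called in both directions. Among 20 transcripts annotated as retained introns, 1 was higher (of Med31) and 2 were lower (of Cdk8 and Med13), each in the direction of its gene. Transcripts of a gene can repeat the same signal, and the gene value is their sum. Over protein-coding genes, the median sum in total RNA was 16.2 with 1 transcript and 349 with 10 or more. The median of the mean per transcript was 16.2 and 27.1. A shared direction of transcripts and gene is therefore no separate evidence.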
